A study of Mus musculus with 4 samples.

Results

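The Tfap2 family comprises the genes that encode the AP-2 transcription factors, and its 5 members, Tfap2a to Tfap2e, were taken by gene symbol from the 24421 genes measured by RNA-seq. The libraries came from GFP+ cells sorted by flow cytometry from E11.5 mouse neural tubes, a stage when interneurons of the dorsal spinal cord are being born. One group was Prdm13GFP/+, heterozygous for a knock-in allele that places GFP in the Prdm13 locus and disrupts the gene, and the other was Prdm13GFP/GFP, homozygous for it, so that both groups carried the disrupted allele and only the second lacked an intact copy. RNA of several embryos was combined into a pool for each genotype, and both libraries of a genotype were made from its pool. These are technical replicates, so every SD (n = 2 libraries) and p-value given here reflects only library making and sequencing, and differences between embryos do not enter. The GFP+ gate depends on the Prdm13 locus, so the cells that passed it may differ between genotypes.

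PRDM13 is a zinc finger protein that represses transcription and helps to set the balance of inhibitory and excitatory neurons in the dorsal neural tube. AP-2 proteins bind GC-rich sites as dimers through a carboxy-terminal helix-span-helix domain, and different members can pair with each other and bind alike sites. Tfap2a and Tfap2b are best known for neural crest, face and skin, and both are also made in inhibitory interneurons of the retina, the cerebellum and the dorsal spinal cord. Tfap2c is known from trophoblast, skin and germ cells, Tfap2d from the midbrain, and Tfap2e from the olfactory system.

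The members have related coding sequences, and reads could in principle be assigned to the wrong one. Aligned over 1279 coding bases, Tfap2a and Tfap2b were identical at 72.9%, and Tfap2b and Tfap2e were identical at 70.0% over 1261 bases. The lowest identity of the 10 pairs was 64.4%, between Tfap2d and Tfap2e. No stretch of 36 or of 50 bases in the RefSeq-paired transcripts of any member occurred in another. Reads of Tfap2a and Tfap2b would be hardest to tell apart where the genes are most alike, so a 60-base coding stretch is shown. It is the most alike among gapless stretches that begin at a codon start and lie within a single exon of both genes. Stretches in other frames or across exon junctions were not compared. Its counterparts in Tfap2c and Tfap2e are given, with every base that differs from Tfap2a in capitals. All 4 stretches lie in exon 7 and are written 5′ to 3′ on the coding strand of GRCm38 (mm10), at chr13:40717193-40717252 (minus strand) for Tfap2a, chr1:19234201-19234260 (plus) for Tfap2b, chr2:172557242-172557301 (plus) for Tfap2c and chr4:126716585-126716644 (minus) for Tfap2e.
Tfap2a: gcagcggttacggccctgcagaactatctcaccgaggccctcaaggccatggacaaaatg
Tfap2b: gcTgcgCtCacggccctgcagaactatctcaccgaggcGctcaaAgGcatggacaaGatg
Tfap2c: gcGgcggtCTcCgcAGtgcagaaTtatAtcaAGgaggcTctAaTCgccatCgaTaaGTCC
Tfap2e: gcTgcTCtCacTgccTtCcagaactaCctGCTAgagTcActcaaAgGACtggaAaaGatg
Tfap2b differed from Tfap2a at 7 of these bases, and Tfap2c and Tfap2e each differed from it at 20.

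Expression was deposited as RPKM, read counts scaled to the exon length of the gene and to the size of the library, so levels can be compared between genes as well as between libraries. The depth recovered from these values was 12331232 and 19611464 reads in the Prdm13GFP/+ libraries and 17491033 and 14800662 in the Prdm13GFP/GFP libraries. In both genotypes the order of the mean RPKM was Tfap2b, Tfap2a, Tfap2e, Tfap2c and Tfap2d, and each step was larger than the spread between libraries. Tfap2b was highest, at 88.3 ± 2.78 RPKM in Prdm13GFP/+, where 729 genes of the whole table were higher. Tfap2a followed at 50.3 ± 1.26 RPKM, and Tfap2e was far below both at 2.00 ± 0.12 RPKM. Tfap2c was near the limit of detection, and Tfap2d was listed at 0 in every library.

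**Figure D1:**
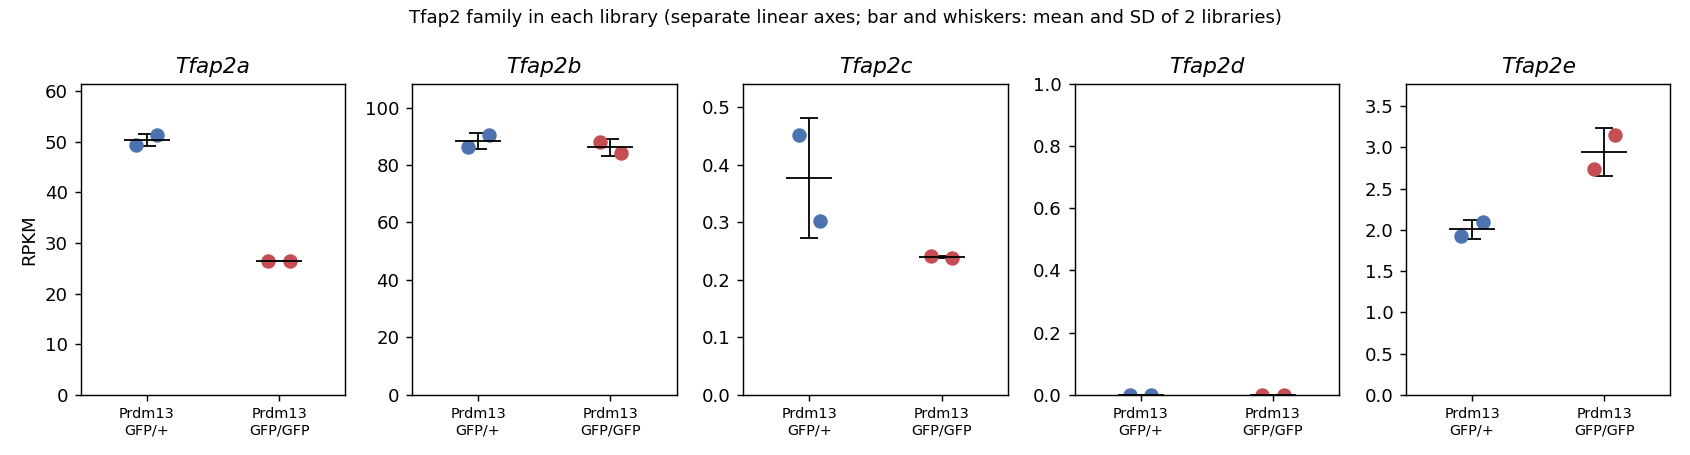
RPKM (vertical, a separate linear axis from 0 for each gene) of the 5 Tfap2 genes in the 2 libraries of each genotype (points), with the mean and SD (black). Tfap2a lies near 50 in both Prdm13GFP/+ libraries and near 26 in both Prdm13GFP/GFP libraries, the Tfap2b libraries overlap, and Tfap2d is at 0.

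The question was which AP-2 genes change when PRDM13 is absent. Genes with a mean of at least 1 RPKM in either genotype were tested with limma on log2(RPKM + 0.1), and a call required both a fold of 1.5 or more and a Benjamini-Hochberg adjusted p under 0.05. Of the 5 members 3 passed the RPKM filter. Tfap2a was called lower, Tfap2b and Tfap2e were not called, and none was called higher. Over all 12046 genes tested, 2.67% were called lower, 3.65% higher and 6.33% in either direction, and the median log2 fold change was 0.01.

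Tfap2a, which encodes AP-2 alpha, was the member that fell. The gene (ID 21418) spans chr13:40713802-40738238 on the minus strand of mm10. It had 49.4 and 51.2 RPKM in the Prdm13GFP/+ libraries and 26.4 and 26.5 RPKM in the Prdm13GFP/GFP libraries. The Prdm13GFP/GFP values were close to each other and well below both Prdm13GFP/+ values. Mean RPKM fell by 47.5% to 26.4 ± 0.067. The log2 fold change was -0.93 (standard error 0.049, 95% interval -1.04 to -0.81, limma adjusted p = 8.04e-05). Among the genes tested, 188 had a lower log2 fold change. Depth did not limit this value, since the recovered counts were 2245 and 3683 reads in Prdm13GFP/+ and 1683 and 1421 in Prdm13GFP/GFP. The call was kept whichever library was left out, and it was lost when genes of every level were tested together, where the adjusted p was 0.0509. In these bulk sorted cells, a smaller share of Tfap2a-expressing cells and less Tfap2a RNA per cell cannot be told apart.

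Within the span of Tfap2a, a long noncoding RNA gene on the opposite strand, Gm26688 (ID 102633805, chr13:40727808-40735162, plus strand), was lower as well. It is named outside the rule for neighbouring genes, because it overlaps a member. It had 4.96 and 4.77 RPKM in Prdm13GFP/+ and 2.12 and 2.38 RPKM in Prdm13GFP/GFP, so its groups did not overlap. Its log2 fold change was -1.08 (standard error 0.11, limma adjusted p = 0.00125), with a 95% interval of -1.34 to -0.83 that overlapped the interval of Tfap2a. The exons of both genes share 111 bases, which is 3.05% of the exon length of Tfap2a and 7.08% of that of Gm26688. These are shares of length and not of reads, since mean RPKM in Prdm13GFP/+ was 50.3 for Tfap2a and 4.86 for Gm26688. Whether the counting used strand was not stated, so reads from the shared bases cannot be assigned to one gene with certainty, and their part in the change of Gm26688 was not tested.

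Tfap2b, which encodes AP-2 beta (ID 21419, chr1:19208908-19238845, plus strand), had the highest level in the family and was not called. It had 86.3 and 90.3 RPKM in Prdm13GFP/+ and 88.1 and 84.1 RPKM in Prdm13GFP/GFP. The groups overlapped. Its log2 fold change was -0.04 (standard error 0.050, limma adjusted p = 0.649), and the 95% interval of -0.16 to 0.08 leaves room for a ratio of Prdm13GFP/GFP to Prdm13GFP/+ between 0.898 and 1.06. With 6496 to 10754 reads per library, counting error was small.

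The 2 main members changed by different amounts. The RPKM of Tfap2a divided by that of Tfap2b was 0.573 and 0.568 in Prdm13GFP/+ and 0.299 and 0.315 in Prdm13GFP/GFP. This ratio was lower in both Prdm13GFP/GFP libraries than in either Prdm13GFP/+ library. On the log2 scale it went from -0.81 ± 0.0093 to -1.70 ± 0.052, a difference of -0.89, which is many times the SD between libraries. A two-sided exact permutation test over the 4 libraries gave p = 0.333, the smallest it can give with 2 against 2. The 95% intervals of the log2 fold changes of Tfap2a and Tfap2b, given with their values, did not overlap.

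The make-up of the family also differed between the pools. The summed RPKM of all members was 138 and 144 in the Prdm13GFP/+ libraries and 117 and 114 in the Prdm13GFP/GFP libraries, with means of 141 ± 4.06 and 116 ± 2.52. Both Prdm13GFP/GFP totals were below both Prdm13GFP/+ totals. Tfap2a supplied 35.7% ± 0.13 of the total in Prdm13GFP/+ and 22.8% ± 0.56 in Prdm13GFP/GFP. The share of Tfap2b was 62.6% ± 0.17 and 74.4% ± 0.87 in the same order. For the total and for each of these shares the exact permutation test gave its smallest value, p = 0.333.

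**Figure D2:**
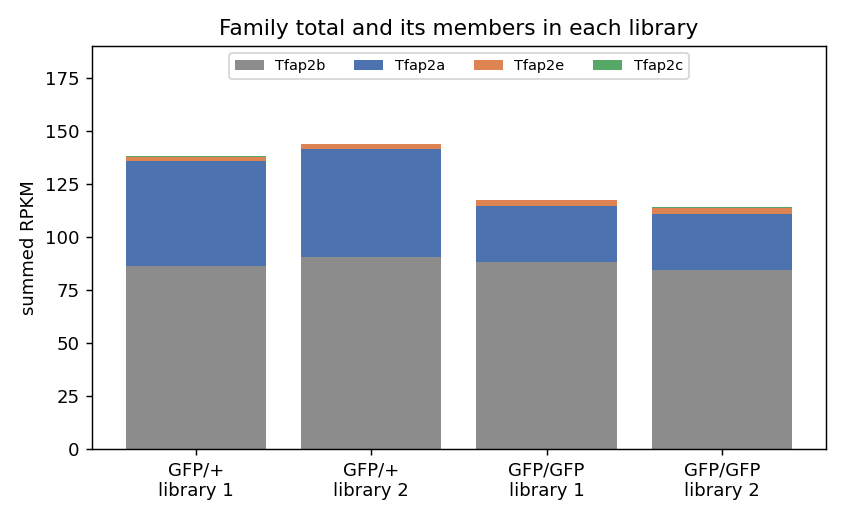
Summed RPKM of the Tfap2 genes in each of the 4 libraries (vertical, from 0), with 1 bar per library divided into Tfap2b, Tfap2a, Tfap2e and Tfap2c. The Tfap2b segment is of like height in all 4 bars, and the Tfap2a segment is shorter in both Prdm13GFP/GFP bars. Tfap2d is at 0 and has no segment.

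Tfap2e, which encodes AP-2 epsilon (ID 332937, chr4:126716003-126736269, minus strand), had its higher values in the mutant pool. It had 1.92 and 2.09 RPKM in Prdm13GFP/+ and 2.73 and 3.14 RPKM in Prdm13GFP/GFP. The groups did not overlap, as was true of 31.7% of all genes tested in this direction, 30.3% in the direction of Tfap2a and 62.1% in either. The log2 fold change was 0.53 (standard error 0.13, 95% interval 0.21 to 0.84, limma adjusted p = 0.036), under the fold of 1.5 that a call needed. An adjusted p under 0.05 was reached by 19.7% of all genes tested, whatever their fold. The value rests on 47 and 81 reads against 94 and 91, and leaving out any 1 library moved the adjusted p to between 0.0813 and 0.195. Tfap2e made up 1.42% ± 0.044 of the family total in Prdm13GFP/+ and 2.54% ± 0.31 in Prdm13GFP/GFP.

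Tfap2c and Tfap2d did not pass the filter and have no test. Tfap2c (AP-2 gamma, ID 21420, chr2:172545678-172558622) had 0.451 and 0.302 RPKM in Prdm13GFP/+ and 0.241 and 0.238 RPKM in Prdm13GFP/GFP, from 16, 17, 12 and 10 reads. All 4 values are small, and the ratio of pooled reads per effective library size, 0.666, had an exact 95% interval of 0.37 to 1.18 for counting error only, so no difference was detectable at this depth. Tfap2d (AP-2 delta, ID 226896, chr1:19103022-19173948), which lies 34960 bases from Tfap2b, had no read in any library. A count of 0 allows up to 3 reads, which for its annotated exon length is 0.147 and 0.093 RPKM in Prdm13GFP/+ and 0.105 and 0.125 RPKM in Prdm13GFP/GFP. Tfap2c exceeded the limit of Tfap2d in every library.

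**Figure D3:**
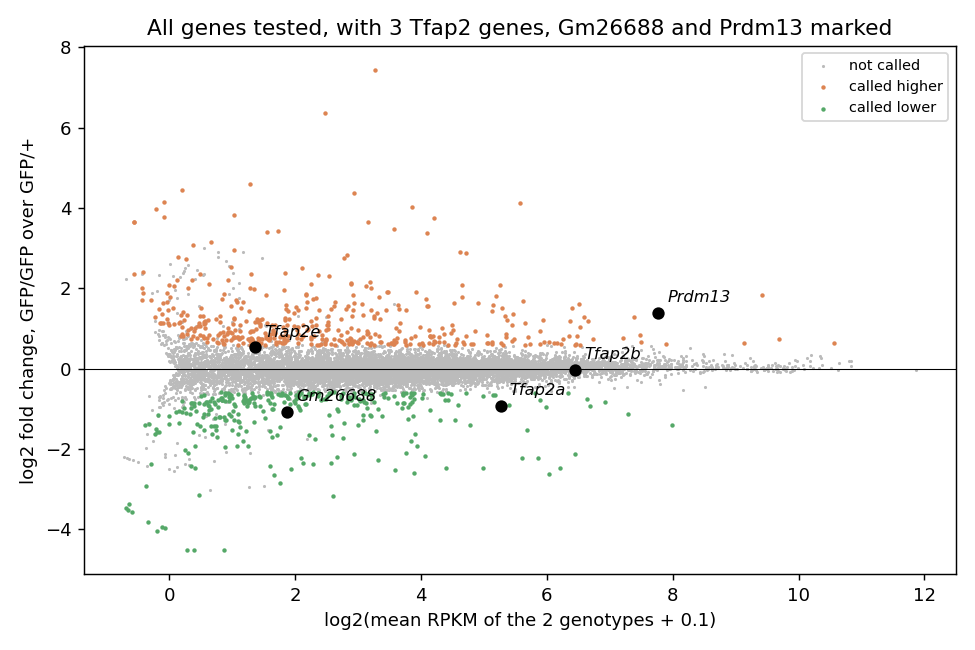
Log2 fold change (vertical, Prdm13GFP/GFP over Prdm13GFP/+) against log2 of mean RPKM + 0.1 (horizontal) for the 12046 genes tested, coloured by call, with Tfap2a, Tfap2b, Tfap2e, Gm26688 and Prdm13 as black points. Tfap2a and Gm26688 lie among the genes called lower, Tfap2b lies near 0, and Tfap2e lies at 0.53 in the grey band.

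The genes that flank the members were set beside them. Counting the 2 nearest measured genes on each side of each member, there were 16 flanking genes other than the members, of which 6 passed the filter and 4 had no read in any library. None of the 6 was called by limma, 2 of them had an unadjusted p under 0.05, and limma voom on recovered reads called 0. At least 19.7% of all genes tested had an unadjusted p under 0.05, since that share had an adjusted p under 0.05. Beside Tfap2a, the first gene on one side, Ofcc1, had 0.031, 0, 0.022 and 0 RPKM, and the next, 5033403F01Rik, had 0.126 to 0.180 RPKM. On the other side Gcnt2, a glycosyltransferase gene 121530 bases away, had a log2 fold change of -0.22 (95% interval -0.66 to 0.22), and the microRNA gene Mir5124a was at 0. Around Tfap2b, Defb41 and 4930486I03Rik were at 0 in every library, as was Defb18 next to Tfap2d, and Pkhd1 did not exceed 0.034 RPKM. Beside Tfap2c, Fam209, Bmp7 and Spo11 were under the filter and Rtfdc1 had a log2 fold change of 0.03.

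Tfap2e lies between active genes. Psmb2, a proteasome subunit gene 6288 bases away, had 110 and 104 RPKM in Prdm13GFP/+ and 117 and 123 RPKM in Prdm13GFP/GFP, with a log2 fold change of 0.17 (limma adjusted p = 0.0629). The next gene on that side, 5730409E04Rik, had 1.33 and 1.26 RPKM in Prdm13GFP/+ and 1.83 and 1.89 RPKM in Prdm13GFP/GFP. Its log2 fold change of 0.49 (limma adjusted p = 0.0775) was not called. On the other side Ncdn had a log2 fold change of 0.11 and AU040320 of -0.11, with adjusted p of 0.492 and 0.229 by limma.

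**Figure D4:**
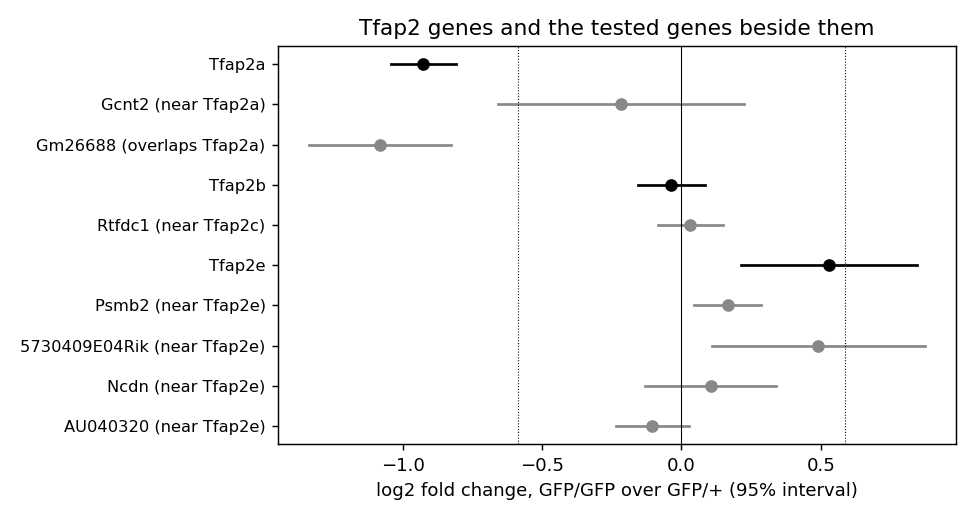
Log2 fold change (horizontal, with 95% interval; dotted lines mark a fold of 1.5) of the 3 Tfap2 genes tested (black) and of the tested genes beside them (grey). The intervals of Tfap2a and Gm26688 lie wholly beyond the fold of 1.5 on the lower side, and those of the other genes do not.

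AP-2 proteins act with cofactors, and a list of 15 such genes was examined. It holds the CITED coactivators with the acetyltransferases Crebbp and Ep300, the inhibitors Kctd1 and Kctd15, other proteins that bind AP-2, and Klf12, which encodes a repressor first described at the Tfap2a promoter. All 15 passed the filter, and 1 was called higher and 0 lower, against 3.65% and 2.67% of all genes tested. Their median log2 fold change of 0.03 stood beside 0.01 over all genes tested. By adjusted p alone 1 was higher and 5 were lower, against 9.76% and 9.95% of all genes tested.

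The gene called was Cited4, and it was scarce. It had 0.137 and 0.130 RPKM in Prdm13GFP/+ and 0.880 and 1.45 RPKM in Prdm13GFP/GFP, so it passed the filter through the group in which it was high. The log2 fold change was 2.40 (standard error 0.46, limma adjusted p = 0.0146). It rests on 2 and 3 reads against 18 and 25, a ratio of pooled reads per effective library size of 8.59 with an exact 95% interval of 3.41 to 27.8 for counting error. The call was lost with quantile normalization (limma adjusted p = 0.0561), and Cited4 was not tested without Prdm13GFP/GFP replicate 2, since it then fell under the filter. Its abundant relative Cited2 had 111 and 117 RPKM in Prdm13GFP/+ and 115 and 118 RPKM in Prdm13GFP/GFP, with a log2 fold change of 0.03 (95% interval -0.08 to 0.15).

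The 5 partners with a lower value past adjusted p, named after their values were seen, did not reach a fold of 1.5. Klf12 had 8.38 and 8.03 RPKM in Prdm13GFP/+ and 5.74 and 5.37 RPKM in Prdm13GFP/GFP, with a log2 fold change of -0.56 (limma adjusted p = 0.0041). Klf12 was past both thresholds without Prdm13GFP/+ replicate 2 (log2 fold change -0.59) and without Prdm13GFP/GFP replicate 1 (-0.60). Kctd15, whose product binds and inhibits AP-2 alpha, had 74.3 and 79.5 RPKM in Prdm13GFP/+ and 60.9 and 65.2 RPKM in Prdm13GFP/GFP. Its libraries did not overlap, and its log2 fold change was -0.29 (limma adjusted p = 0.0177). Dek, a chromatin protein gene, had a log2 fold change of -0.29, Crebbp of -0.28 and Ep300 of -0.27. Kctd1, the closest relative of Kctd15, had 9.85 and 8.82 RPKM in Prdm13GFP/+ and 9.07 and 10.3 RPKM in Prdm13GFP/GFP, and these overlapped.

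A second list held 13 genes with reported AP-2 sites, mostly from other tissues. Of these, 7 passed the filter and none was called by limma, and limma voom on recovered reads called 0. An unadjusted p under 0.05 was reached by 2, against at least 19.7% of all genes tested. Their median log2 fold change was -0.17, against 0.01 over all genes tested. The gene of the highest level was Hoxa2, a hindbrain and spinal cord Hox gene, with 71.6 and 68.3 RPKM in Prdm13GFP/+ and 60.7 and 62.6 RPKM in Prdm13GFP/GFP. Its log2 fold change was -0.18 (limma adjusted p = 0.0447). Kit, a receptor tyrosine kinase gene and the other with an adjusted p under 0.05, had 20.8 and 20.8 RPKM in Prdm13GFP/+ and 15.7 and 16.4 RPKM in Prdm13GFP/GFP, with a log2 fold change of -0.38 (limma adjusted p = 0.00549). The 6 genes under the filter included Cdh1, Erbb3 and Dbh, and Krt14 was at 0 in every library.

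**Figure D5:**
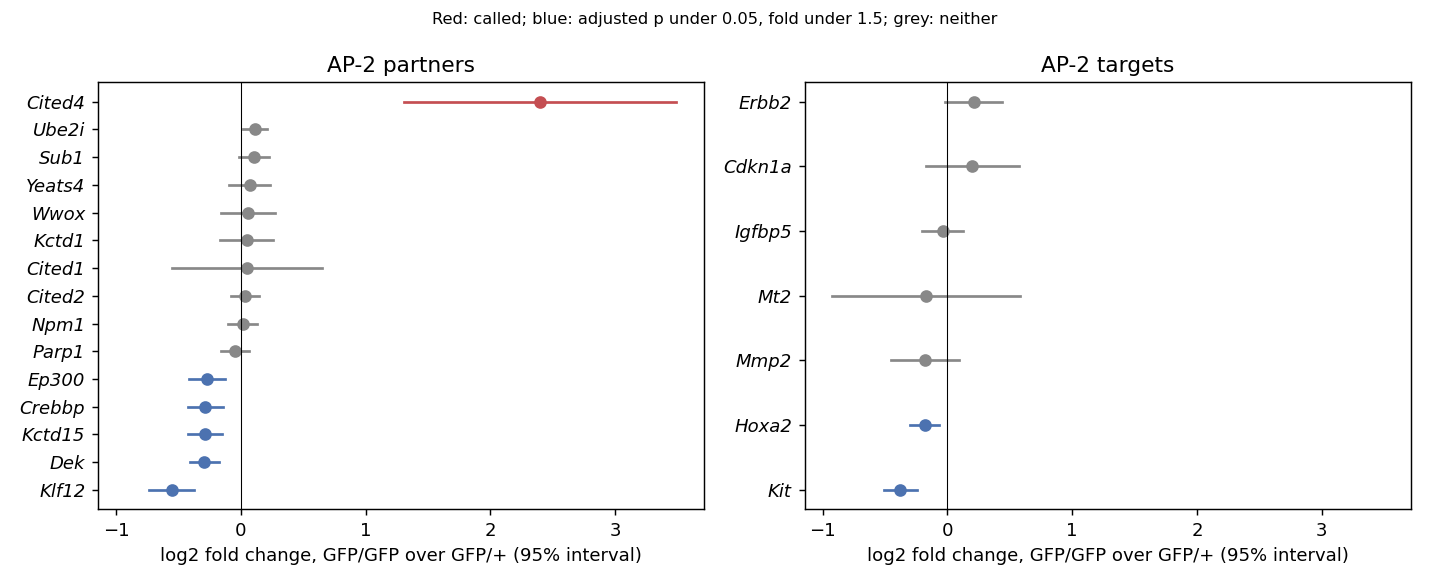
Log2 fold change (horizontal, with 95% interval) of the tested genes of the AP-2 partner list (left) and the AP-2 target list (right), coloured by call. Cited4 stands apart at 2.40 with a wide interval, and Klf12, Dek, Kctd15, Crebbp, Ep300, Kit and Hoxa2 have adjusted p under 0.05 with folds under 1.5.

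AP-2 genes are also active in cells other than dorsal interneurons, and markers of those cells were examined in the sorted pools. Surface ectoderm markers were scarce, since 11 of 12 were under the filter, Krt14 and Trp63 were at 0 in every library, and the 12 together summed to 2.39 to 2.53 RPKM in Prdm13GFP/+ and 2.06 to 2.64 RPKM in Prdm13GFP/GFP. The keratin gene Krt8 was the exception, at 1.58 and 1.602 RPKM in Prdm13GFP/+ and 0.920 and 0.770 RPKM in Prdm13GFP/GFP (log2 fold change -0.84, limma adjusted p = 0.0333), a call that was lost whichever library was left out. No other surface ectoderm marker had a lower mean in Prdm13GFP/GFP, and Cdh1, Grhl2, Grhl3 and Epcam, under the filter with no test, had higher ones. Cdh1 had 4 and 6 reads in Prdm13GFP/+ and 15 and 11 in Prdm13GFP/GFP, and Grhl3 had 4 and 6 against 15 and 10. Of the 9 neural crest markers 6 were under the filter, the crest and glial factor Sox10 among them at 0.255 to 0.781 RPKM. The list summed to 15.5 to 18.4 RPKM in Prdm13GFP/+ and 9.89 to 11.1 RPKM in Prdm13GFP/GFP, and most of this was Foxd3, which is also made by some dorsal interneurons. Foxd3 was called lower, from 10.1 and 12.8 RPKM to 4.20 and 4.25 RPKM. The means of the remaining crest markers went both ways, with Sox10 higher in Prdm13GFP/GFP (0.429 to 0.731 RPKM) and Mitf lower (0.188 to 0.063 RPKM). No defining neural crest marker was at 0 in every library, and the part of such cells in the change of Tfap2a was not tested.

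Other lists touched few genes. Of 6 roof plate markers 3 passed the filter, Msx1, Msx2 and Wnt1, which are also used by dorsal progenitors. These 3 were called lower, against 2.67% of all genes tested. The list summed to 19.2 to 19.4 RPKM in Prdm13GFP/+ and 11.8 to 11.99 RPKM in Prdm13GFP/GFP, and most of this was Msx2. Lmx1a, Gdf7 and Wnt3a were under the filter with no test, and their means were higher in Prdm13GFP/GFP. Mean RPKM was 0.070 in Prdm13GFP/+ and 0.174 in Prdm13GFP/GFP for Lmx1a. In the same order it was 0.078 and 0.114 for Gdf7 and 0.357 and 0.456 for Wnt3a. Whichever library was left out, 1 call was made in the list. Of 6 sympathoadrenal markers only Th passed and was called higher, with a log2 fold change of 0.75, and the list summed to 4.80 to 4.83 RPKM and then to 7.74 to 8.49 RPKM. Of the mesenchyme and germ cell lists 1 and 2 genes passed the filter, and limma called none, with 0 at an unadjusted p under 0.05 and 0 by limma voom. Their genes of the highest level were Col1a2, at 1.16 to 1.70 RPKM, and Dnd1, at 0.896 to 1.76 RPKM.

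The dorsal inhibitory neuron list, whose cells are those in which Tfap2a and Tfap2b are known in the spinal cord, changed throughout. Of 12 genes 11 were called lower and 1, Ptf1a, higher, against 2.67% and 3.65% of all genes tested, with a median log2 fold change of -2.32. The study had reported most of these genes as changed in the same libraries, so these calls are not independent of its findings. The 6 largest changes, those of Pax2, Gad2, Slc6a5, Pax8, Lhx1 and Slc32a1, were log2 fold changes of -2.62 to -2.46, all lower than that of Tfap2a. The list was not uniform, since Gbx1 (-0.76) and Lbx1 (-0.61) fell less than Tfap2a (-0.93) and Ptf1a rose (1.81). The list summed to 711 to 770 RPKM in Prdm13GFP/+ and 250 to 260 RPKM in Prdm13GFP/GFP. Among neurons in general, 1 of 8 markers, Stmn2, was called higher and 1, Snap25, lower. By adjusted p alone 4 were higher and 1 was lower, against 9.76% and 9.95% of all genes tested. Those higher were Stmn2 and, with a fold under 1.5, Tubb3 (log2 fold change 0.34), Elavl4 (0.23) and Elavl3 (0.17). The log2 fold change of Stmn2 was 0.61, and its call was lost with quantile normalization (0.52) and without Prdm13GFP/GFP replicate 1 (0.58), where its fold was under 1.5. Both calls were lost without a filter, with limma adjusted p of 0.0619 for Stmn2 and 0.051 for Snap25. None of the 8 neural progenitor markers was called by limma, and 0 were called by limma voom. An unadjusted p under 0.05 was reached by 5 of them, against at least 19.7% of all genes tested. By adjusted p alone 2 were higher, Hes5 (log2 fold change 0.42) and Pax6 (0.26), and 2 were lower, Sox2 (-0.48) and Pax7 (-0.35). Vim, the progenitor marker of the highest level, had a log2 fold change of 0.05. The part of a change in neuronal type in the fall of Tfap2a was not tested.

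Prdm13 itself had 114 and 127 RPKM in Prdm13GFP/+ and 310 and 324 RPKM in Prdm13GFP/GFP. The knock-in allele can still give reads over the rest of the gene, so this value does not check the loss of the intact transcript. Prdm13 was called higher, with a log2 fold change of 1.40 (limma adjusted p = 3.63e-05).

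For each tested member the 5 genes with the nearest profile were found among 7135 genes of at least 10 RPKM in either genotype, by Euclidean distance of the 4 log2 values centred on their mean. With 2 libraries of each of 2 pools, such likeness rests mostly on a similar difference between pools. Nearest to Tfap2a were Nptx1, a neuronal pentraxin, Ccnd1, which encodes cyclin D1, Cdon, Nav2 and Gas1, at distances of 0.020 to 0.090 on the log2 scale. Cdon and Gas1 encode cell surface coreceptors for Hedgehog ligands. Nptx1 had 17.9 and 18.5 RPKM in Prdm13GFP/+ and 9.36 and 9.49 RPKM in Prdm13GFP/GFP, and Ccnd1 had 130.4 and 139 RPKM against 70.5 and 70.0 RPKM. All 5 log2 fold changes lay between -0.97 and -0.85, beside -0.93 for Tfap2a.

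Nearest to Tfap2b were Wdr70, Ccnt2, Zfp777, Dcaf11 and Celf1, at distances of 0.010 to 0.020, and their log2 fold changes lay between -0.05 and -0.03. Nearest to Tfap2e were Mapk11, Irx5, Sox13, Rn45s and Spsb1, at distances of 0.050 to 0.066. Rn45s is the ribosomal RNA precursor, which polyA selection should largely remove. It had 159 and 164 RPKM in Prdm13GFP/+ and 226 and 255 RPKM in Prdm13GFP/GFP, and its log2 fold change of 0.57 stood beside 0.53 for Tfap2e. Rn45s was chosen for a profile near that of Tfap2e, so the likeness of these fold changes follows from the choice. The part of carried-over ribosomal RNA in the value of Tfap2e was not tested.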

How the data were processed

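RNA was measured in GFP+ cells of 2 genotypes with 2 libraries each, grouped by GEO's labels. Per the labels and the methods, the authors isolated polyA RNA, prepared Illumina TruSeq libraries, aligned reads with TopHat2 2.1.0 to mm10, counted exon reads of RefSeq genes with featureCounts, normalized them by TMM and deposited RPKM, computed with edgeR 3.6.8. CASAVA is also named in the processing notes. The deposited RPKM values were tested on log2(RPKM + 0.1) with limma 3.58.1 (lmFit, eBayes with a trend, two-sided, no covariate, all 4 libraries) over 12046 genes with a mean of at least 1 RPKM in either genotype, in R 4.3.3. For low genes, the fold change on this scale is smaller than that of the RPKM. Calls needed both a fold of 1.5 or more and a Benjamini-Hochberg adjusted p under 0.05. Ratios and shares were tested by exact permutation (scipy 1.17.1).

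RPKM steps gave whole reads for 98.5% of 19200 genes above 0, within 0.0005 reads. These gave 12331232 to 19611464 reads per library, the read numbers in the text, and a limma voom test that called 448 genes higher and 353 lower. Intervals and limits on reads cover counting error only. Libraries of a genotype differed by more than counting error, where a chi-square test per gene averaged 2.59 in Prdm13GFP/+ and 2.46 in Prdm13GFP/GFP. On simulated data for this comparison (11710 genes), 48 of 50 genes raised 2-fold and 42 of 50 genes lowered to a fold of 0.5 were called, as were 12 unchanged genes. Same-numbered libraries of the genotypes deviated with a correlation of 0.047, so numbers were not taken as pairs.

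Named genes were the 5 members, Prdm13, from each list the genes called (the 6 largest changes where more were called, the highest gene where none was), flanking genes and the 5 nearest profiles of each tested member; exceptions are stated. One marker list is not reported here. The members and lists were chosen with earlier results of these data known. Positions and sequences are from RefSeq (GRCm38.p6) and GENCODE vM21 (GRCm38). Alternatives were other pseudocounts, filters, scalings and moderation, a replicate block, leaving out each library, and voom.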

Additional observations from a re-analysis of the deposited data

How the results depend on the processing

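The alternatives were pseudocounts of 1 and 0.01, no filter, a filter that both libraries must pass, scaling by median ratios or by quantiles, eBayes without a trend, a replicate block, each library left out, and limma voom on recovered reads. Across all 13, Tfap2a, Tfap2b and Tfap2e kept their direction, and only without a filter did a call among them change, that of Tfap2a (adjusted p = 0.0509, log2 fold change -0.93). That fit tested all 24421 genes and called 30 higher and 14 lower, against 440 and 322, and the AP-2 partner list had 0 calls and the marker lists together 3. Without 1 library, the calls ranged from 258 to 437 higher and 212 to 266 lower, with the fewest without Prdm13GFP/GFP replicate 2. With the replicate block the counts were 459 and 342, Tfap2a had a log2 fold change of -0.93, and no call among the members changed. Same-numbered libraries shared only a number, with a correlation of 0.047.

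The AP-2 partner list had 0 calls with the filter on both libraries and 0 with quantile normalization, and 0 to 2 without 1 library. Its median was -0.038 with quantile normalization and -0.061 to 0.038 without 1 library. The median of the AP-2 target list was -0.10 with a pseudocount of 1, -0.014 without a filter, -0.094 with voom and -0.16 to -0.063 without 1 library. The median of all marker genes was -0.17 with a pseudocount of 1, 0 without a filter, -0.31 with the filter on both libraries and -0.40 to -0.25 without 1 library, and that of the surface ectoderm list was 0.21 without a filter. The Tfap2c log2 difference was -0.15 with a pseudocount of 1, and the family total differed by -28.8 RPKM with quantile normalization, in place of -25.3. Genes near 0 changed sign: Ncdn (-0.042 to 0.25 without 1 library), Rtfdc1 (-0.00023 with quantile normalization), Cited2 (-0.038 with quantile normalization, -0.0017 to 0.071 without 1 library), Vim (-0.0094 with quantile normalization), Dcaf11 (-0.073 to 0.020 without 1 library) and Dnd1 (0.0062 with voom, -0.52 to 0.38 without 1 library). The cause was not tested. Pseudocounts were not run for the family total and shares, which use no logarithm.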
